A study of Mus musculus with 23 samples.

Results

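Translation initiation factor genes code for the proteins that bring the small ribosomal subunit, the initiator tRNA and an mRNA together at the start codon. They were taken here as the genes whose symbol begins with Eif and a digit from 1 to 6, without Eif2c symbols and without pseudogene symbols. This gave 55 of the 22784 genes of the deposited table, and the rule used names only and no measured value. Of the 55 genes, 54 reached 1 FPKM, a measure of fragments scaled to transcript length and library size, in at least 1 group, as did 14242 genes in all. The other was Eif2s3y, the Y-linked copy of the eIF2 gamma gene, with at most 0.00927 FPKM. Eif3j1 passed only through 1.08 FPKM in secondary follicle oocytes from animals. The symbols also cover genes that are not initiation factors in the strict sense: 4 kinases that phosphorylate eIF2 alpha, 4 genes for proteins that bind and hold back eIF4E, Eif4a3 of the exon junction complex, Eif1ad, Eif6, which keeps the large ribosomal subunit from joining, and Eif5a, which acts mainly in elongation.

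The data were 23 poly(A) RNA libraries of mouse cells on the way to oocytes, made in culture or taken from animals, in 8 groups of 3 samples, or 2 for day 6 PGCLCs. The culture groups were of the strain C57BL/6 X 129. They were female embryonic stem (ES) cells grown in 2i+LIF medium, PGCLCs (cells induced from female EpiLCs to resemble primordial germ cells) on day 6, PGCLCs after 3 days in aggregates with somatic cells of E12.5 female gonads (5000 to 50000 cells), oocytes of secondary follicles after 21 days in such aggregates, and metaphase II (MII) oocytes, named so in title and cell type while their source field names the secondary follicle oocytes they came from. The aggregates kept for 21 days had received ICI182780, an estrogen receptor antagonist, at 500 nM from day 7 to day 10. The follicles giving MII oocytes had been grown for 11 days with FSH at 0.1 IU/ml, with BMP15 and GDF9 at 15 ng/ml until day 2, and matured for 16 hours with FSH, EGF at 4 ng/ml and hCG at 1.2 IU/ml. The animal groups were of the strain B6D2F1. They comprised E12.5 primordial germ cells (PGCs) and secondary follicle oocytes at postnatal day 8, both sorted by BVSC transgenes (the sex of the E12.5 PGCs is not given in the labels), and MII oocytes of females aged 8 weeks. Strain and route could therefore not be told apart.

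The table gives 1 FPKM value per gene and group, so no difference below has a replicate check, a standard error or a p-value, and the read depth behind a value is unknown. Differences are given between values of log2(FPKM + 1), which understates those of low genes. A gene is called higher or lower where this difference was at least 1, that is 2-fold, and the share of all 14242 genes called the same way stands beside the first count of each comparison. FPKM is a share of a library, and the libraries hold poly(A) RNA only. A shorter poly(A) tail, less RNA per cell and fewer cells of a type cannot be told apart in it. The column sums ran from 268720 FPKM in reaggregated PGCLCs to 975407 in animal MII oocytes, and 3 other scalings (equal column sums, quantile normalization and median centring) are named beside the results described here that they change. Growing and mature oocyte markers summed to 14851 FPKM or more in each of the 4 oocyte groups and to at most 27.8 in each of the other 4. The 7 germ cell markers had their lowest sum in ES cells. Their sum was highest in the MII oocytes, 1286 FPKM in culture and 1425 in the animal, of which Dppa3 gave 835 and 839. In E12.5 PGCs their sum was 969 FPKM and their median was highest, 135 FPKM. Nanos3 was listed at 0 in both MII groups.

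Initiation on most mRNAs starts when eIF4E binds the cap and the scaffold eIF4G joins it to the helicase eIF4A, while eIF2 carries the initiator tRNA and eIF3 holds the complex on the small subunit. eIF2 is recharged with GTP by eIF2B, and phosphorylation of its alpha subunit by stress kinases blocks that exchange. Growing oocytes store much of their mRNA untranslated, and meiotic maturation runs without transcription, largely on stored mRNAs whose poly(A) tails are lengthened at a cytoplasmic polyadenylation element in the 3′ untranslated region.

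That element and the polyadenylation signal are the sequence features most directly tied to poly(A) RNA in maturing oocytes, so the 3′ ends of the genes were read from GRCm38 with the GENCODE M21 annotation. The element was searched as TTTTAT or TTTTAAT on the transcript strand in the last 100 bases, and the signal as AATAAA or ATTAAA in the last 40 bases. TTTTAAT can overlap the start of AATAAA. The windows below are 30 bases long, written 5′ to 3′ on the transcript strand, with the element or the signal in capitals. They are shown for Eif4e3 and Eif1ax, which hold the element, and for 4 other genes that were called at MII in both routes and hold no element.

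Eif4e3, higher at MII, element: aaTTTTATttttgaactttatttaaagcat
Eif1ax, lower at MII, element: tcagtggatgTTTTATgctgcacaaatata
Eif2ak4, higher at MII, signal: tgtataaatttacctttttgatatAATAAA
Eif2b1, higher at MII, signal: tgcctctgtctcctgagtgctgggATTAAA
Eif4e1b, lower at MII, signal: tgcttaaggccctttctgtatctaAATAAA
Eif3b, lower at MII, signal: gcctctgtgcaggttggatgtggaAATAAA

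All 6 windows lie in 3′ untranslated exons. They are at chr6:99625205-99625234 on the minus strand for Eif4e3, chrX:159389889-159389918 on the plus strand for Eif1ax, and chr2:118475191-118475220 on the plus strand for Eif2ak4. The others are at chr5:124570227-124570256 on the minus strand for Eif2b1, chr13:54788415-54788444 on the plus strand for Eif4e1b, and chr5:140443316-140443345 on the plus strand for Eif3b. The Eif4e3 window ends 70 bases before the annotated transcript end and the Eif1ax window 10 bases before it.

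**Figure D1:**
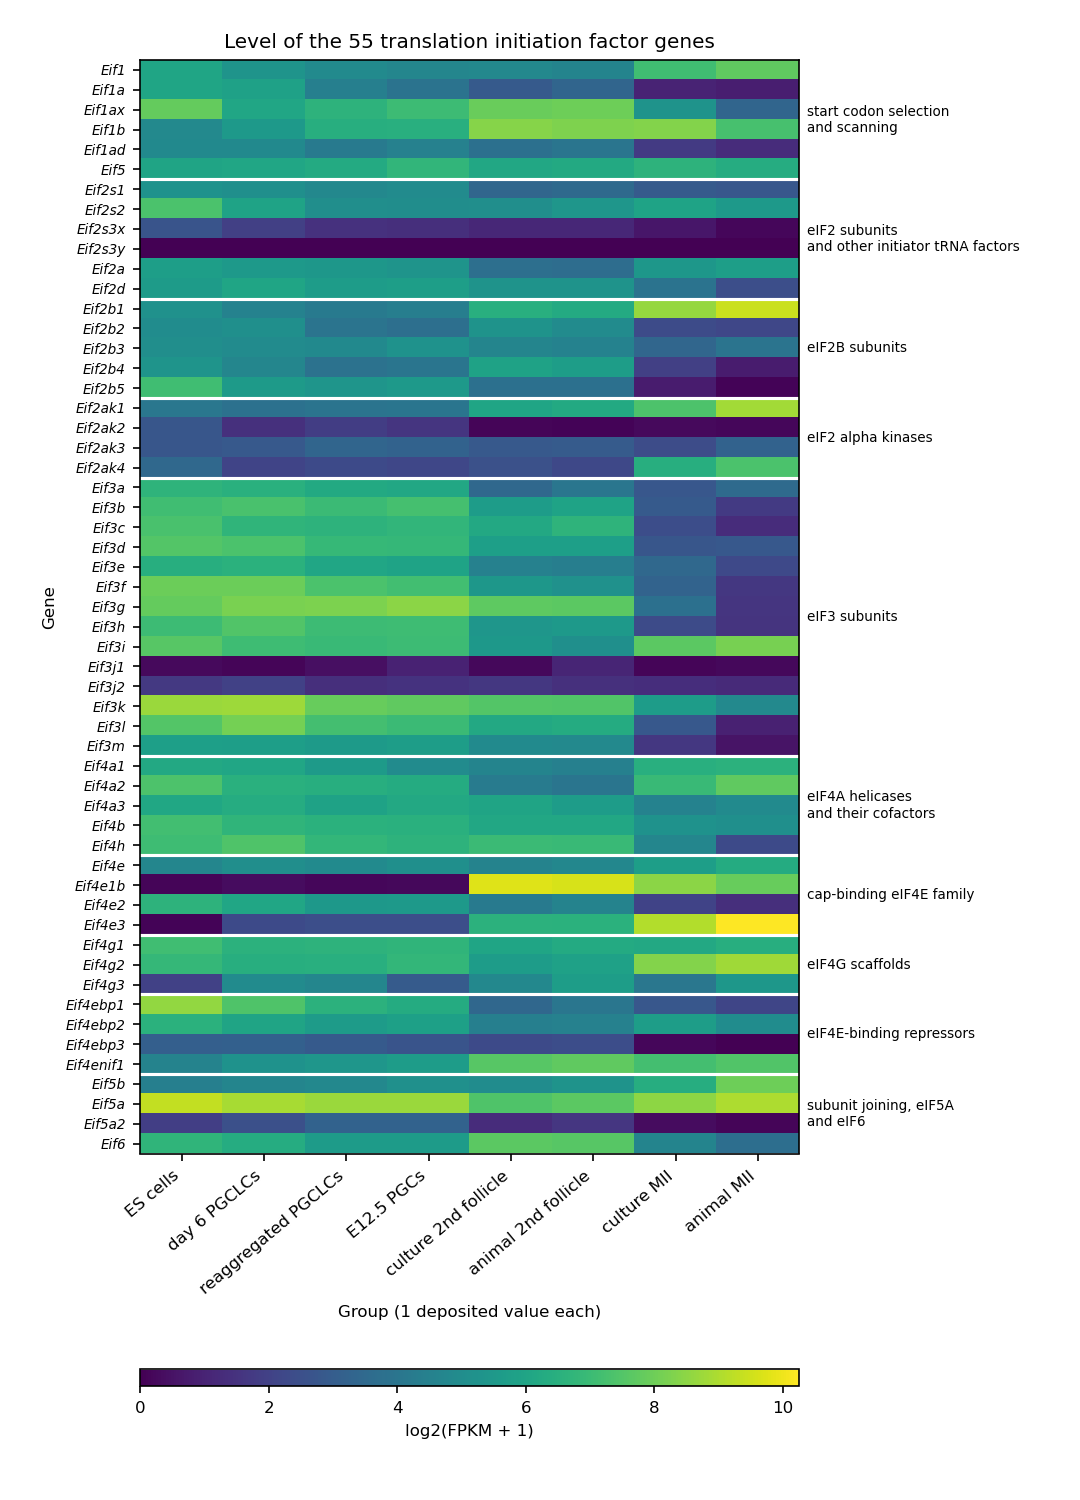
Level of each of the 55 genes (rows, grouped by role) in the 8 groups (columns), as log2(FPKM + 1), with 1 deposited value per group. Eif4e1b is dark in the 4 groups before oocyte growth and bright in the 4 oocyte groups, and most eIF3 rows darken towards the MII columns while Eif3i brightens.

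The cap-binding family changed its make-up between germ cells and oocytes. Eif4e, the general cap-binding factor, had 24.9 FPKM in ES cells, 32.7 in PGCLCs of day 6, 29.0 in reaggregated PGCLCs and 33.5 in PGCs of E12.5, then 23.1 and 26.1 in culture and animal secondary follicle oocytes, and 53.3 and 77.2 in the MII oocytes. Its levels before MII thus lay within a narrow band, and both MII values were above all others unscaled. The step of Eif4e from the follicle stage to MII was called in both routes unscaled. With equal sums or quantile normalization it was called in neither. Eif4e1b, an oocyte form of eIF4E, had 0.0942 FPKM in ES cells, 0.252 in PGCLCs of day 6, 0.130 in reaggregated PGCLCs and 0.176 in PGCs of E12.5. In secondary follicle oocytes of culture and animal it reached 867 and 801 FPKM, rank 27 of all genes in both, and at MII 355 and 233. Between germ cells and secondary follicle oocytes the difference was 9.59 in culture and 9.41 in the animal, the largest of the 54 genes in each comparison. From the follicle stage to MII it was lower, by -1.29 and -1.78.

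Eif4e3, a cap-binding form with a different cap contact, followed another course. It had 0.0769 FPKM in ES cells, 3.95 in PGCLCs of day 6, 4.51 in reaggregated PGCLCs, 4.47 in E12.5 PGCs, 94.1 and 93.9 in culture and animal secondary follicle oocytes, and 539 and 1221 in the MII oocytes. It was higher at each of the 2 oocyte stages than at the stage before, in both routes, by 4.11 and 4.12 and then by 2.51 and 3.69. Eif4e2, a cap-binding protein that represses translation, went the other way, from 98.7 FPKM in ES cells over 43.1 in reaggregated and 45.3 in E12.5 germ cells to 17.5 and 23.2 in secondary follicle oocytes and 3.16 and 1.58 at MII. Of the summed FPKM of these 4 genes, Eif4e2 held 79.8% in ES cells, Eif4e1b 86.6% and 84.8% in culture and animal secondary follicle oocytes, and Eif4e3 56.7% and 79.7% in the MII oocytes. Eif4e itself held at most 40.1%, in E12.5 PGCs, and 2.31% to 5.61% in the oocyte groups. Over aligned coding bases Eif4e is 65.6% identical to Eif4e1b, 58.2% to Eif4e2 and 54.4% to Eif4e3, and no identical run between them was longer than 11 bases.

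**Figure D2:**
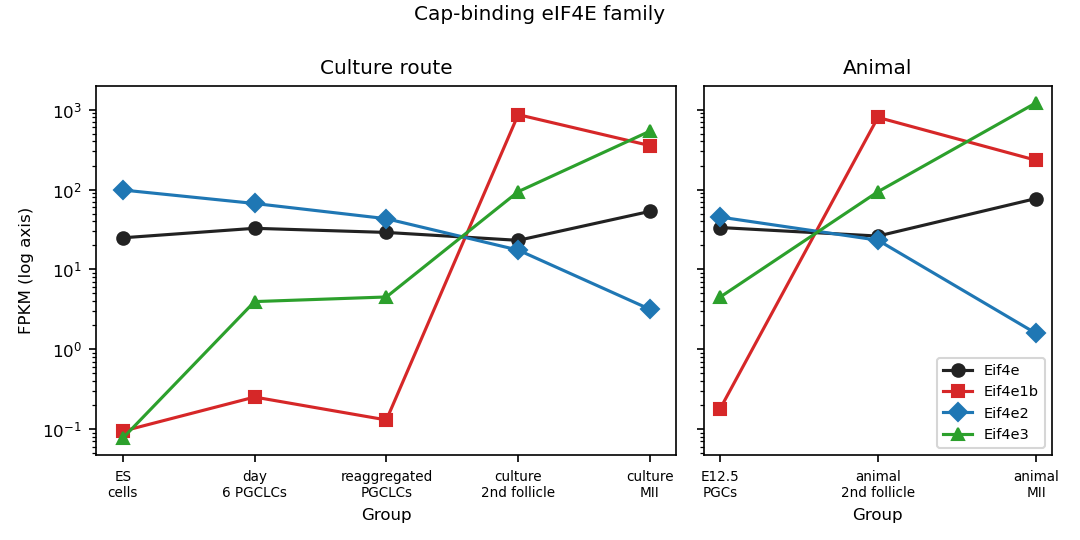
FPKM (log axis) of the 4 cap-binding genes along the culture route (left) and in the animal (right), 1 deposited value per point, lines joining the stages. Eif4e1b leads at the secondary follicle stage (867 and 801 FPKM) and Eif4e3 at MII (539 and 1221 FPKM), in both routes.

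The genes for proteins that hold eIF4E back followed different courses. Eif4ebp1, whose product blocks eIF4E until mTOR phosphorylates it, had 386 FPKM in ES cells, 170 in PGCLCs of day 6, 95.1 in reaggregated and 79.2 in E12.5 germ cells, 9.62 and 15.4 in culture and animal secondary follicle oocytes, and 5.93 and 3.47 at MII. Eif4ebp2, of the same family, had 93.4, 61.7, 48.3 and 55.6 FPKM in ES cells, day 6 PGCLCs, reaggregated PGCLCs and E12.5 PGCs, 20.3 and 21.9 in secondary follicle oocytes, and 51.3 and 30.6 at MII. Eif4ebp1 was thus the higher of these genes in the 4 groups before oocyte growth, and Eif4ebp2 was in the 4 oocyte groups, with 89.6% and 89.8% of their sum in culture and animal MII oocytes. Eif4ebp3 had 7.63 FPKM in ES cells, 4.34 in animal secondary follicle oocytes and 0.133 in culture MII oocytes, and was listed at 0 in animal MII oocytes.

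Eif4enif1, which codes for a transporter that binds eIF4E and holds mRNAs in repressed particles, had 22.9 FPKM in ES cells, 36.9 in PGCLCs of day 6, 41.0 in reaggregated PGCLCs and 49.2 in PGCs of E12.5. It had 190 and 213 FPKM in culture and animal secondary follicle oocytes, and 146 and 177 at MII. All 4 oocyte values were well above the others, with a difference of 2.19 and 2.09 from germ cells to secondary follicle oocytes, and between the oocyte stages it was within 2-fold unscaled. With equal sums it was lower at MII in both routes, by -1.19 and -1.73, and with quantile normalization by -1.42 and -1.90.

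The eIF4G scaffolds differed among themselves. Eif4g1, the main scaffold, had 138 FPKM in ES cells, 94.1 in PGCLCs of day 6, 97.0 in reaggregated PGCLCs, 102 in E12.5 PGCs, 65.0 and 76.7 in secondary follicle oocytes of culture and animal, and 71.5 and 85.5 at MII. It was within 2-fold in all 9 comparisons unscaled. Its step to MII, 0.14 in culture and 0.15 in the animal, turned to -0.67 and -1.30 with equal sums and to -0.60 and -1.11 with quantile normalization. With the latter Eif4g1 was also lower in culture secondary follicle oocytes than in reaggregated PGCLCs, by -1.11. Eif4g2, a scaffold relative that lacks the eIF4E-binding part, had 50.3 and 56.9 FPKM in secondary follicle oocytes and 323 and 445 at MII, a difference of 2.66 and 2.94. Eif4g3, the other full scaffold, had 2.95 FPKM in ES cells, 29.98 in PGCLCs of day 6, 25.2 in reaggregated PGCLCs, 26.5 in culture secondary follicle oocytes and 15.7 in culture MII oocytes, against 6.75 in E12.5 PGCs, 51.0 in animal secondary follicle oocytes and 42.1 in animal MII oocytes. In culture it was therefore near its level of the oocyte stage already at day 6, and in the animal it was low in E12.5 PGCs.

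The helicase eIF4A and its cofactors split at MII. Eif4a1 and Eif4a2, whose products unwind the 5′ leader of the mRNA, had 23.9 and 18.0 FPKM in culture and 21.1 and 14.7 in animal secondary follicle oocytes, below their levels in every other group. At MII Eif4a1 had 87.9 and 94.5 FPKM, and Eif4a2 122 and 215. Eif4h, a cofactor of eIF4A, had 127 and 124 FPKM in secondary follicle oocytes and 25.4 and 4.00 at MII. The other cofactor, Eif4b, had 70.5 and 70.8 FPKM at the follicle stage and 36.3 and 33.0 at MII. Eif4a3, which marks exon junctions after splicing, had 62.0 and 49.2, and then 22.6 and 29.3. The helicases were thus higher at MII than at the follicle stage in both routes, though Eif4a1 was not called in the animal with equal sums, and their cofactors had lower values.

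Each subunit of eIF2 was within 2-fold between the oocyte stages on the unscaled log2(FPKM + 1) scale. For Eif2s3x, at 1.22 FPKM or less in these stages, this scale understates the difference. With equal sums Eif2s1 was lower at MII in both routes, by -1.18 and -1.90, and in the animal so were Eif2s2, by -1.33 in place of 0.10, and Eif2s3x, by -1.18. Median centring put Eif2s1 and Eif2s3x in the animal at -1.13 and -1.4. Eif2s1, the alpha subunit that the kinases phosphorylate, had 36.6 FPKM in ES cells, 33.1 in PGCLCs of day 6, 26.3 in reaggregated PGCLCs, 30.1 in E12.5 PGCs, 9.44 and 10.4 in secondary follicle oocytes and 6.47 and 5.93 at MII. Eif2s2, the beta subunit, had 162 FPKM in ES cells and between 31.2 and 60.3 elsewhere. Eif2s3x, the gamma subunit gene on the X chromosome, had 5.30 FPKM in ES cells. It had 1.18 and 1.22 FPKM in culture and animal secondary follicle oocytes, and 0.538 and 0.121 at MII. With a pseudocount of 0.1 Eif2s3x was called lower at MII in both routes. Levels of the alpha and gamma subunits were thus lowest in the MII oocytes. Eif2a and Eif2d, which can deliver initiator tRNA without eIF2, parted at MII: Eif2a had 12.6 and 11.6 FPKM at the follicle stage and 42.1 and 52.4 at MII, and Eif2d had 37.1 and 37.3 and then 13.9 and 4.52.

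The 5 subunits of eIF2B, which exchanges GDP for GTP on eIF2, were close to each other in germ cells and far apart at MII. In reaggregated PGCLCs and E12.5 PGCs the highest subunit was 2.88 and 3.65 times the lowest, and in secondary follicle oocytes 6.82 and 5.89 times. In the MII oocytes it was 556 times in culture and 8222 times in the animal. These ratios of FPKM rest on Eif2b5 at 0.717 and 0.0835 FPKM, so their size is uncertain. Eif2b1, the alpha subunit, which is regulatory, had 17.0 and 19.8 FPKM in reaggregated and E12.5 germ cells, 86.5 and 75.5 at the follicle stage and 399 and 686 at MII. Eif2b5, the catalytic epsilon subunit, had 39.3 and 45.2, 12.7 and 12.8, and 0.717 and 0.0835 FPKM at the same stages. Eif2b4, the delta subunit, had 13.6 and 14.8, then 59.3 and 51.9, then 2.82 and 0.704 FPKM. Eif2b2, the beta subunit, had 37.03 and 29.4 FPKM at the follicle stage and 4.13 and 3.54 at MII, and Eif2b3, the gamma subunit, had 24.3 and 22.5 and then 9.38 and 14.5. At MII Eif2b1 was thus the only subunit above its follicle level in either route, and the 4 others had lower values. This held under each scaling for Eif2b1, Eif2b2, Eif2b4 and Eif2b5, and Eif2b3 was called lower in culture under each. In the animal Eif2b3 was at -0.59 unscaled, and it was called lower with equal sums (-1.94) and median centring (-1.005).

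Among the kinases of eIF2 alpha, Eif2ak4 (GCN2, which senses uncharged tRNA) had 9.94 FPKM in ES cells, 3.24 in PGCLCs of day 6, 3.98 in reaggregated PGCLCs, 3.54 in E12.5 PGCs, 4.82 and 3.71 in secondary follicle oocytes, and 85.7 and 162 at MII. The step to MII was 3.90 in culture and 5.11 in the animal, the largest increase of the 54 genes in each. Eif2ak1 (HRI, the heme-regulated kinase) had 14.2 and 14.8 FPKM in reaggregated and E12.5 germ cells, 65.0 and 74.3 at the follicle stage, and 168 and 451 at MII. Eif2ak3 (PERK, of the endoplasmic reticulum) stayed between 4.25 and 9.07 FPKM in all groups. Eif2ak2 (PKR, activated by double-stranded RNA) had 5.61 FPKM in ES cells and at most 0.186 in the oocyte groups. So the kinases for uncharged tRNA and heme were high at MII, and the other 2 were within 2-fold between the oocyte stages, except that Eif2ak3 was lower in culture with equal sums, by -1.10.

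The 12 subunits of eIF3 other than Eif3j1 and Eif3j2 were high in germ cells and low at MII, with 1 exception. Their median was 168 FPKM in ES cells, 161 in PGCLCs of day 6, 124 in reaggregated PGCLCs, 127 in E12.5 PGCs, 46.9 and 49.4 in culture and animal secondary follicle oocytes, and 6.28 and 2.25 at MII. Eif3g, which helps scanning, had 303 and 355 FPKM in reaggregated and E12.5 germ cells, 208 and 202 at the follicle stage, and 12.7 and 2.01 at MII. Eif3c, of the core, had 71.0 and 102 FPKM at the follicle stage and 4.35 and 1.47 at MII, and Eif3l had 72.1 and 79.2 and then 6.00 and 0.923. Eif3a, the largest subunit, was lowest of the 12 at the follicle stage, with 10.2 and 15.1 FPKM, and had 5.83 and 10.8 at MII, within 2-fold unscaled and lower by -1.4 and -1.75 with equal sums.

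Eif3i, a WD repeat subunit bound to the core, was the exception. It had 194 FPKM in ES cells, 133 in PGCLCs of day 6, 121 in reaggregated PGCLCs, 129 in E12.5 PGCs, 43.2 and 33.0 in secondary follicle oocytes, and 204 and 283 at MII. The next highest subunit at MII, Eif3k, had 49.5 and 27.5 FPKM. From the follicle stage to MII, 10 of the 12 subunits were lower in each route, 1 was higher (Eif3i) and 1 was within 2-fold (Eif3a). Of all genes 28.6% were lower in culture and 33.1% in the animal, and 23.9% and 28% were higher. Under the other scalings, pseudocounts and filters 9 to 11 were lower, and Eif3i was the 1 that was higher in each. Eif3j1 and Eif3j2 stayed at or below 2.97 FPKM. Their coding sequences are identical over the 783 bases of Eif3j1, so reads within these bases cannot be split between them and both values are uncertain. Their untranslated regions were not compared.

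**Figure D3:**
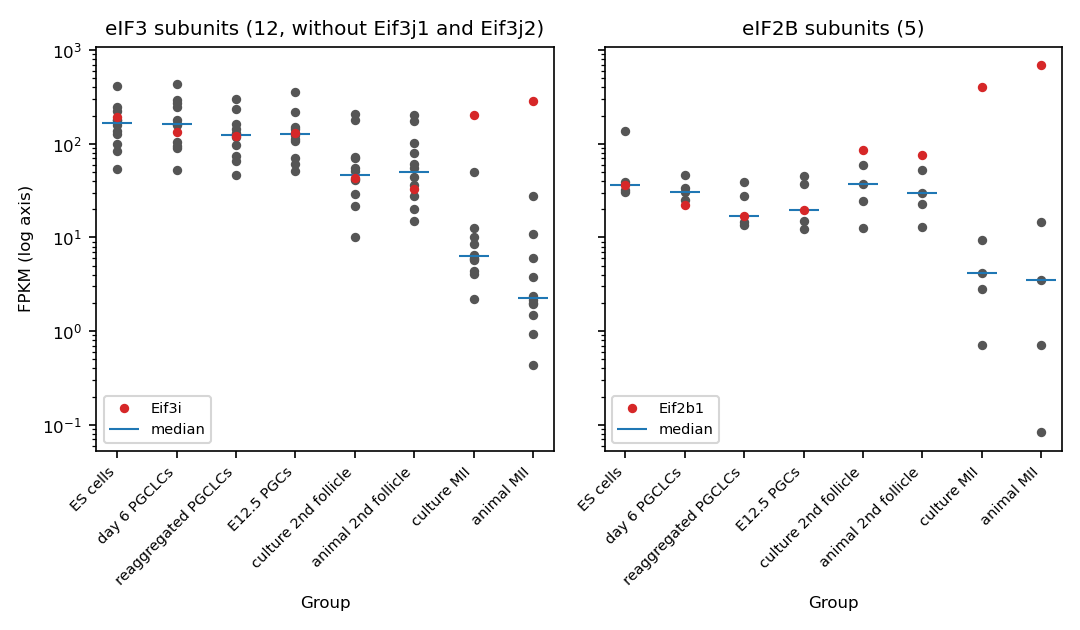
FPKM (log axis) of the subunits of eIF3 (12, left) and eIF2B (5, right) in the 8 groups, 1 point per subunit, with the median as a bar. The points spread at MII, where Eif3i (204 and 283 FPKM) and Eif2b1 (399 and 686 FPKM), in red, stand above the other subunits.

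Factors of start codon selection and scanning came as paralogues with different courses. Eif1b had 27.1 FPKM in ES cells, 85.8 and 87.6 in reaggregated and E12.5 germ cells, 338 and 309 in secondary follicle oocytes, and 327 and 152 at MII. Eif1, its relative, had 64.8 FPKM in ES cells, 28.9 and 24.9 in the germ cells, 26.5 and 24.0 at the follicle stage, and 137 and 216 at MII. Eif1b thus held 92.7% and 92.8% of their summed FPKM at the follicle stage, and 70.4% and 41.3% at MII. Their coding bases are 81.1% identical, and the labels do not state how the counting treated shared reads.

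Eif1ax, the X-linked gene for eIF1A, which helps the ribosome to scan, had 226 FPKM in ES cells, 66.4 in PGCLCs of day 6, 97.6 in reaggregated PGCLCs, 128 in E12.5 PGCs, 241 and 251 in secondary follicle oocytes, and 37.5 and 9.09 at MII. Eif1a, its autosomal paralogue, had 64.0 and 58.0 FPKM in ES cells and day 6 PGCLCs, 20.3 and 13.8 in reaggregated and E12.5 germ cells, 6.53 and 9.07 at the follicle stage, and 1.03 and 0.824 at MII. Eif1ax was above Eif1a in every group, by 1.14 times in PGCLCs of day 6 and by 36.9 and 27.7 times in culture and animal secondary follicle oocytes. Coding bases of Eif1ax and Eif1a are 85.6% identical, so the limit on shared reads holds for them too. Eif1ad, related by domain to eIF1A, had 12.9 and 14.7 FPKM at the follicle stage and 2.35 and 1.44 at MII. Eif5, which makes eIF2 hydrolyse GTP at the start codon, stayed between 62.9 and 107 FPKM in all 8 groups and was within 2-fold in every comparison unscaled. Its step to MII in the animal, 0.11, turned to -1.34 with equal sums and to -1.12 with quantile normalization.

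The remaining factors act at or after subunit joining. Eif5b, the GTPase that joins the subunits, had 20.7 FPKM in ES cells, 30.3 and 38.1 at the follicle stage, and 83.0 and 256 at MII. Eif6 had 48.7 and 48.1 FPKM in reaggregated and E12.5 germ cells, 201 and 193 at the follicle stage, and 23.9 and 12.1 at MII. Eif5a had 641 FPKM in ES cells, 482 in PGCLCs of day 6, 419 in reaggregated PGCLCs, 413 in E12.5 PGCs, 173 and 205 in secondary follicle oocytes, and 369 and 503 at MII. The Eif5a step to MII of 1.08 and 1.29 turned to -0.012 in culture with quantile normalization, and to -0.18 and -0.56 in the animal with equal sums and quantile normalization. Eif5a2, its paralogue, had 8.43 and 8.46 FPKM in the germ cells and at most 2.09 in the oocyte groups.

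Counted over all roles, differences were few before oocyte growth. From ES cells to day 6 PGCLCs 2 of 54 genes were higher, against 9.63% of all genes, and 6 were lower, against 12% of all genes. Eif4g3 was higher by 2.97 and Eif4e3, at under 10 FPKM, by 2.201. Among the lower were Eif1ax at -1.75, Eif2b5 at -1.52 (136 to 46.5 FPKM), Eif2s2 at -1.41 (162 to 60.2 FPKM) and Eif4ebp1 at -1.17. From day 6 to reaggregated PGCLCs 0 were higher, against 5.15% of all genes, and 2 lower, against 5.04%, namely Eif1a at -1.47 and Eif2b2 at -1.15 (33.6 to 14.6 FPKM). These counts became 1 and 1 with equal sums, 2 and 2 with quantile normalization and 1 and 2 with median centring.

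From germ cells to secondary follicle oocytes 10 of 54 genes were higher in culture, against 25.2% of all genes, and 19 lower, against 26.4%. In the animal 10 were higher, against 24.3%, and 16 lower, against 25.9%. In either direction 51.6% of all genes were called in culture and 50.2% in the animal. With equal sums 8 were higher and 22 lower in culture, and 9 and 21 in the animal. With quantile normalization the counts were 9 and 24, and 10 and 22. With median centring they were 10 and 18, and 11 and 14. Of all genes 34.5% and 33% were lower with equal sums, and 28.7% and 28.4% with quantile normalization. The 2 comparisons share no sample. They had 9 genes higher in both, 16 lower in both and 0 called in opposite directions. Over all 14242 genes 3075 were higher in both, 3138 lower in both and also 0 in opposite directions. The 9 were Eif1b, Eif2ak1, Eif2b1, Eif2b2, Eif2b4, Eif4e1b, Eif4e3, Eif4enif1 and Eif6, of which Eif2b2 was within 2-fold in both routes with equal sums (0.94 and 0.88). The 16 included 7 eIF3 subunits, Eif4ebp1, Eif4ebp2, Eif4a2, Eif5a and Eif2s1. Of these, Eif3d and Eif5a were within 2-fold in the animal with median centring. The median difference of the 54 genes was -0.45 in culture and -0.48 in the animal, beside -0.09 over all genes in each. A gene called in 1 route only was Eif4g3, at 0.07 in culture and 2.75 in the animal.

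The step from secondary follicle to MII oocytes had more calls. In culture 14 of 54 genes were higher, against 23.9% of all genes, and 24 lower, against 28.6%. In the animal 13 were higher, against 28%, and 26 lower, against 33.1%. In either direction 52.5% of all genes were called in culture and 61.1% in the animal. The share higher was thus near that of all genes, and the share lower, 44.4% and 48.1%, was above it. With equal sums the counts were 8 and 32 in culture and 9 and 37 in the animal, and with quantile normalization 9 and 26 in culture and 10 and 31 in the animal. The median of the 54 genes was -0.72 and -0.91, beside -0.08 and -0.09 over all genes, and equal sums moved the median over all genes to -0.48 and -0.71.

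Most calls at this step were shared by the routes, with 13 genes higher in both and 22 lower in both. In opposite directions 0 were called, while 7 were called in 1 route. Over all 14242 genes 3100 were higher in both, 3713 lower in both, 7 opposite and 2542 called in 1 route. The near absence of opposite calls was thus not particular to these genes. Across the 54 genes the differences of the routes had a Pearson correlation of 0.97, beside 0.94 over all genes. This describes genes, which are not independent replicates. Under every setting tried, 7 were higher in both routes (Eif1, Eif2ak4, Eif2b1, Eif3i, Eif4a2, Eif4e3 and Eif4g2) and 19 lower in both, among them 9 eIF3 subunits. The other higher genes (Eif2a, Eif2ak1, Eif4a1, Eif4e, Eif5a and Eif5b) lost the call in at least 1 route with equal sums or quantile normalization. The step was larger in the animal for 13 of the 13 genes higher in both and for 20 of the 22 lower in both, the others being Eif2b2 and Eif3d. Over all genes the same held for 88.9% of those higher in both and 81.6% of those lower, so a larger step in the animal was not particular to these genes.

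**Figure D4:**
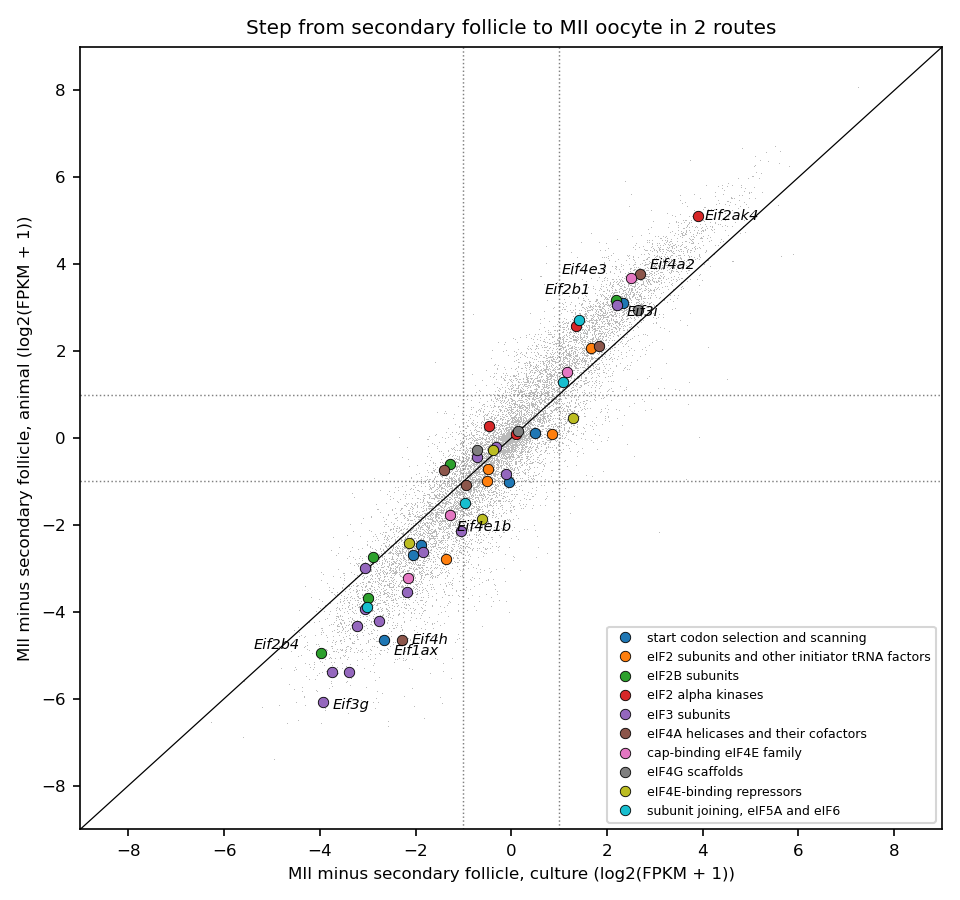
Difference of log2(FPKM + 1) between MII and secondary follicle oocytes in culture (horizontal) and in the animal (vertical), for the 54 genes coloured by role and for all 14242 genes in grey, with dotted lines at 2-fold and a diagonal of equal steps. The 13 genes higher in both routes lie above the diagonal, and most of those lower in both lie below it.

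Some markers of other ovarian cells moved with this step. The 12 granulosa and cumulus cell markers summed to 8.14 and 8.12 FPKM in culture and animal secondary follicle oocytes and to 72.2 and 64.4 at MII, with 8 and 7 of 12 at 1 FPKM or more. Cyp19a1, for aromatase, led with 27.1 and 42.2 FPKM, while Fshr was listed at 0 and Amh and Foxl2 had at most 0.647 FPKM in both MII groups. The 10 stroma markers summed to 80.6 and 65.8 FPKM at MII, of which Gata4 gave 76.7 and 64.8. The MII libraries were made from 99 to 134 cells and those of secondary follicle oocytes from 337 to 812. The part of these in the MII values was not tested.

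The polyadenylation element shown above was counted next. Of all tested genes with a 3′ untranslated region of at least 100 bases, 34.9% of those higher in both routes held it (992 of 2839), 9.13% of those lower in both (286 of 3134) and 19.7% of all (2411 of 12258). The element holds no G or C. The median GC share of the last 100 bases was 31% in these higher genes and 41% in the lower ones. The part of base composition in the counts was not tested. Among the initiation factor genes 1 of 12 higher in both held the element, Eif4e3, and 2 of 18 lower in both, Eif1a and Eif1ax. In all, 4 of 49 held it, or 8.16%, the last being Eif3j2. Eif1, Eif2a, Eif2ak1, Eif2ak4, Eif2b1, Eif4a1, Eif4a2, Eif4e, Eif4g2, Eif5a and Eif5b were higher at MII without these letters in the window. The polyadenylation signal was present in 11 of the 12 higher and in 11 of the 18 lower, beside 84.6% and 70.6% over all genes. The transcript ends are those of the annotation and may not be those used in oocytes.

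Culture and animal were compared at 3 matched stages. In reaggregated PGCLCs against E12.5 PGCs 1 of 54 genes was higher, against 1.39% of all genes, and 0 lower, against 0.786%. The 1 was Eif4g3, with 25.2 against 6.75 FPKM, a difference of 1.76 that held under every setting. The next was Eif4a1, with 47.7 against 29.98 FPKM and a difference of 0.65. The median was -0.03, beside 0.00 over all genes. In secondary follicle oocytes 0 were higher in culture, against 1.74%, and 0 lower, against 0.66%, and the differences ran from -0.92 for Eif4g3 (26.5 against 51.0 FPKM) to 0.38 for Eif3i (43.2 against 33.0 FPKM). With quantile normalization 1 was lower.

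In MII oocytes 12 of 54 were higher in culture than in the animal, against 12.4% of all genes, and 4 lower, against 9.45%. Of the higher genes 7 were eIF3 subunits. Eif4h had 25.4 against 4.00 FPKM, a difference of 2.40, and Eif3g had 12.7 against 2.01, a difference of 2.18. Eif1ax had 37.5 against 9.09 (1.93), Eif2d 13.9 against 4.52 (1.43), Eif3e 10.1 against 3.75 (1.22) and Eif1b 327 against 152 (1.10). The others were Eif3b, Eif3c, Eif3f, Eif3l, Eif3m and Eif2b4, each under 10 FPKM in culture, and 0 eIF3 genes were lower. With equal sums 9 of the 14 eIF3 genes were higher, and with quantile normalization 3. Eif1ax, Eif1b, Eif3g and Eif4h stayed called under every setting.

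The 4 genes lower in culture were Eif5b (83.0 against 256 FPKM, -1.61), Eif2ak1 (168 against 451, -1.42), Eif4g3 (15.7 against 42.1, -1.37) and Eif4e3 (539 against 1221, -1.18). All 4 were within 2-fold with equal sums and with quantile normalization. The counts of higher and lower genes were 18 and 0 with equal sums, 7 and 0 with quantile normalization, 15 and 3 with median centring and 4 and 4 with a pseudocount of 5. Equal sums put the median over all genes at 0.22 and centring at 0.28, instead of 0.01, and the median of the 54 genes was 0.17 unscaled.

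**Figure D5:**
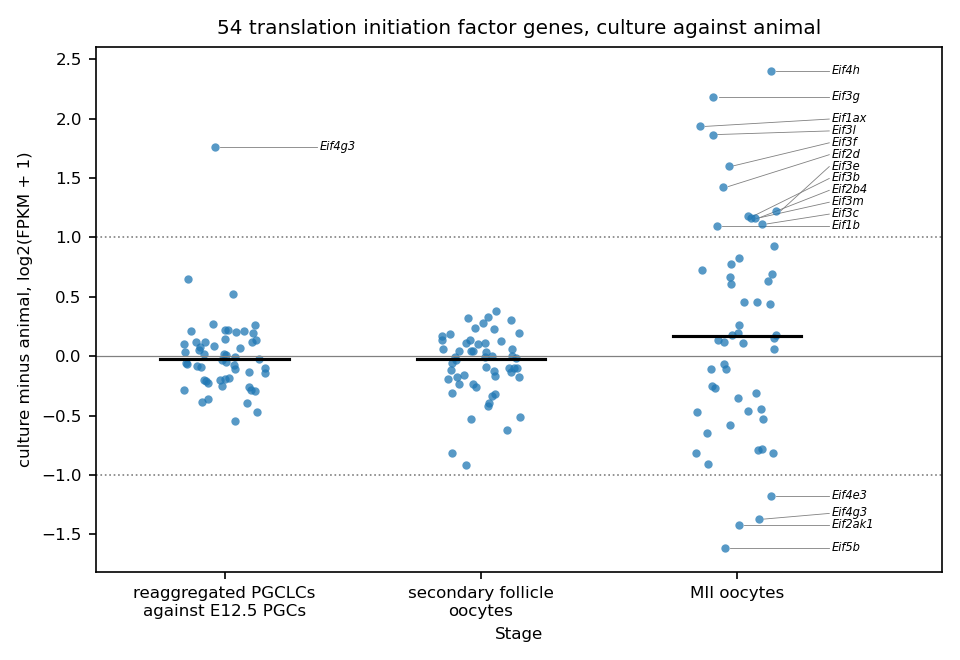
Difference of log2(FPKM + 1), culture minus animal, for each of the 54 genes at 3 matched stages, with the median as a bar, dotted lines at 2-fold and names for genes beyond them. At the first 2 stages Eif4g3 is the 1 gene past 2-fold (1.76), and at MII 12 genes are above and 4 below.

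Other genes of translation gave a frame for these values. Of 13 elongation and termination factors, 0 were higher and 8 lower at MII than at the follicle stage in culture, and 1 and 8 in the animal. Eef1a1, which brings aminoacyl-tRNA to the ribosome, had 214 and 274 FPKM at the follicle stage and 26.7 and 7.01 at MII. Eef2, which moves the ribosome along, had 145 and 158 and then 23.6 and 7.99. Eef1d, of the exchange factor for eEF1A, had 104 and 103 and then 5.36 and 1.34. For these 3 factors, as for most eIF3 subunits, the MII value was below the follicle value in both routes and lower in the animal than in culture. In MII oocytes 5 of 13 were higher in culture than in the animal, against 12.4% of all genes, and 0 lower, against 9.45%. Among the higher were Eef1a1 (1.79) and Eef2 (1.45). With quantile normalization the counts were 2 and 0, against 8.99% and 5.61% of all genes.

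Of 25 other genes that act in initiation, 6 were higher and 11 lower at MII in culture and 7 and 14 in the animal. The share higher was near that of all genes, 23.9% in culture and 28% in the animal. The share lower was above that of all genes, 28.6% and 33.1%. Ddx3x, a helicase for structured leaders, had 72.8 and 96.4 FPKM at the follicle stage and 741 and 1404 at MII. Paip1, which links the poly(A)-binding protein to eIF4A and eIF3, had 48.1 and 62.2 and then 545 and 878. Ppp1r15a, whose product directs the phosphatase that reverses eIF2 alpha phosphorylation, had 14.3 and 11.2 and then 112 and 274. Mknk1, the kinase of eIF4E, had 44.7 and 37.8 and then 173 and 351. So a kinase and a phosphatase regulator of the factors were high at MII beside Eif2ak1 and Eif2ak4. Among the lower were the poly(A)-binding protein genes Pabpc1l (182 and 177, then 36.95 and 9.03 FPKM) and Pabpc1 (24.9 and 32.4, then 5.99 and 2.36).

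The 11 mTOR and S6 kinase genes had 2 higher and 5 lower at MII in culture, and 2 and 6 in the animal. The share higher was below that of all genes (23.9% and 28%) and the share lower above it (28.6% and 33.1%). Rheb, the GTPase that activates mTOR, had 49.9 and 58.2 FPKM and then 228 and 371, while Mlst8, a subunit of both mTOR complexes, had 12.3 and 13.5 and then 1.01 and 0.420. Of 17 measured genes of cytoplasmic polyadenylation and oocyte mRNA repression, 8 were higher and 5 lower at MII in culture and 7 and 5 in the animal. Here the share higher was above that of all genes, and the share lower was near it. Cpeb4, which binds the polyadenylation element, had 1.13 and 1.24 FPKM and then 78.8 and 150, and Cpeb1, its relative that works earlier, had 336 and 410 and then 107 and 59.9. Ddx6, a helicase of repressed mRNA particles that Eif4enif1 binds, had 36.3 and 57.6 and then 1.59 and 1.40.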

How the data were processed

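Gene values are FPKM in the table deposited by the authors, with 1 value per gene and group and the replicates of a group combined. Per the submitters' processing notes, the tools were TopHat2, Bowtie2 2.0.13, Cufflinks and Cuffdiff 2.2.1 and the build was mm10, while the gene annotation was not given in the sources used here. Libraries were directional, per the labels' protocols, with 12 PCR cycles. All 8 value columns were used.

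Values were taken as log2(FPKM + 1) over the 14242 genes with at least 1 FPKM in at least 1 group. A gene was called where a difference reached 1. Since no test was possible, counts stand beside the share of all genes called. The 9 comparisons were 3 of culture against animal and 6 of consecutive stages. The members and gene lists were chosen with earlier results of these data known. Named with values were called members, at most 6 in each direction by size and with at least 10 FPKM in the higher group, Eif4e, Eif4e1b, Eif4ebp1, Eif4ebp2, Eif4enif1, Eif4g1, Eif4g3, Eif2s1, Eif2ak4, Eif5a, Eif1a and Eif1ax in every group, both members of each paralogue pair, and up to 4 called genes per pathway list. All other members were accounted for by role, and a few further values were given after they had been seen.

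Alternatives were pseudocounts of 0.1 and 5, a filter of 5 FPKM or none, equal column sums, quantile normalization, and centring on the median of genes that reached 1 FPKM in both compared groups. For the 3′ ends, the principal coding transcript was taken (the longest where several qualified) from GENCODE M21 on GRCm38, the assembly also called mm10, and 49 of the 54 genes had a 3′ untranslated region of at least 100 bases. The call steps were tested on simulated data. The software was Biopython 1.88, pandas 2.3.3, matplotlib 3.10.9 and NumPy 2.4.6 under Python 3.11.15.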

Additional observations from a re-analysis of the deposited data

Results flagged for a closer look

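Eif4g3, the second full eIF4G scaffold, differed between culture and animal in opposite directions at 2 stages. In reaggregated PGCLCs against E12.5 PGCs it was higher in culture, with 25.2 against 6.75 FPKM and a difference of 1.76 on the log2(FPKM + 1) scale. In MII oocytes it was lower in culture, with 15.7 against 42.1 FPKM and a difference of -1.37, which was within 2-fold with equal column sums and with quantile normalization. In secondary follicle oocytes it had 26.5 against 51.0 FPKM. With 1 value per group the difference between the stages was not tested.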

How the results depend on the processing

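No paired analysis was possible because the table holds 1 value per gene and group, and leaving out each replicate was not run for the same reason. Read depth is unknown, so no precision can be given for low values, and the column sums differ by over 3-fold. Of 230 differences of single genes (called ones and those of genes named throughout), all kept direction and call with a pseudocount of 0.1, a filter of 5 FPKM and no filter. Without a change of direction, a pseudocount of 5 ended 26 calls, median centring 5, equal sums 17 and quantile normalization 18. Newly past 2-fold in the same direction were 2, 9 and 7 values under the last 3. Another 2 values with equal sums and 3 with quantile normalization turned direction with a call on 1 side.

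Counts of called genes that moved by more than 1.5 times were these. For MII oocytes, culture against animal, 12 higher became 4 with a pseudocount of 5 and 7 with quantile normalization, and 4 lower became 0 with equal sums and 0 with quantile normalization. For MII against secondary follicle oocytes in culture, 14 higher became 8 with equal sums and 9 with quantile normalization. For day 6 PGCLCs against ES cells, 2 higher became 1 with a pseudocount of 5. For reaggregated against day 6 PGCLCs, 0 higher became 1 with a pseudocount of 0.1, 1 with equal sums, 1 with median centring and 2 with quantile normalization, and 2 lower became 1 with a pseudocount of 5 and 1 with equal sums. For reaggregated PGCLCs against E12.5 PGCs, 0 lower became 1 with a pseudocount of 0.1. For secondary follicle oocytes, culture against animal, 0 lower became 1 with a pseudocount of 0.1 and 1 with quantile normalization. From secondary follicle to MII oocytes, 4 of the 54 genes turned their direction with a call on 1 side: Eif5a, Eif4g1, Eif5 and Eif2s2. Eif5a was at -0.012 in culture with quantile normalization, and in the animal at -0.18 with equal sums and -0.56 with quantile normalization. In the animal Eif4g1 was at -1.30 with equal sums and -1.11 with quantile normalization, Eif5 at -1.34 and -1.12, and Eif2s2 at -1.33 with equal sums. At this step equal sums gave 8 new calls in culture and 11 in the animal, all lower, and ended 6 and 4. Equal sums moved the median step over all genes from -0.08 to -0.48 in culture and from -0.09 to -0.71 in the animal, while quantile normalization moved both to 0. Beyond that the cause was not tested.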
